A study of Mus musculus with 38 samples.

Results

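The spliceosome genes described here encode the small proteins of the splicing ribonucleoproteins (snRNPs), the SF3A and SF3B complexes, the SR proteins and the Mago proteins of the exon junction complex. They are the protein-coding genes whose symbols begin with Snrp, Lsm and a digit, Sf3a, Sf3b, Srsf or Magoh, which gave 47 genes of the 54532 in the deposited count table. All 47 passed the filter on low counts, as did 22798 genes in all. They were followed in oligodendrocyte precursor cells (OPCs), the dividing glial cells that mature into myelinating oligodendrocytes, of mice at postnatal days 6 to 7. KO mice were NG2:Cre+ and Bmal1fl/fl, and WT mice were NG2:Cre- and Bmal1fl/fl, so the controls carry the floxed alleles too and no group carries Cre with an intact Bmal1. Bmal1 encodes BMAL1, a transcription factor of the circadian clock, and Cre removes its DNA-binding domain in cells in which the NG2 promoter is active. Forebrain cells were purified on antibody plates, and each of the 38 libraries pooled 2 mice. Cells were taken at zeitgeber time (ZT) 0, when the lights come on, and at ZT6, ZT12, when they go off, and ZT18. There were 4, 7, 4 and 4 KO libraries and 4, 5, 6 and 4 WT libraries at these times. The comparison asks whether genotype and hour changed the transcripts of the splicing machinery, and whether its small core proteins and its regulators moved alike.

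Splicing removes introns in a machine built around small nuclear RNAs. Sm proteins form a ring around most of these RNAs and LSm proteins form a related ring around U6, while SF3A and SF3B hold the U2 snRNP at the branch point of the intron. SR proteins bind exons and recruit the machinery to nearby splice sites, and the Mago proteins are part of the complex that marks the joined exons. In the accounts below, the Sm ring genes are Snrpb, Snrpd1, Snrpd2, Snrpd3, Snrpe, Snrpf, Snrpg and Snrpn (8 genes), the U1 and U2 specific genes are Snrpa, Snrpa1, Snrpb2 and Snrpc (4), and the U6 ring genes are Lsm2 to Lsm8 (7). Together these 19 are called the small snRNP genes. The others are 6 LSm genes that act outside U6, 9 SF3A and SF3B genes, 11 SR genes, and Magoh and Magohb.

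Promoters of a few genes are shown as background, since BMAL1 with its partner CLOCK binds the E-box CACGTG. The windows below run from 250 bases before to 50 bases after the start site, 5′ to 3′ on the gene's strand, and come from RefSeq on GRCm38.p6. Snrpf and Magohb are shown because they were the members that rose over all times, and Snrpa because it was the member with an E-box. Capitals mark the E-box CACGTG and the cyclic AMP response element TGACGTCA, which has no relation to the Cre recombinase.
Snrpf, chr10:93589609-93589908, minus strand: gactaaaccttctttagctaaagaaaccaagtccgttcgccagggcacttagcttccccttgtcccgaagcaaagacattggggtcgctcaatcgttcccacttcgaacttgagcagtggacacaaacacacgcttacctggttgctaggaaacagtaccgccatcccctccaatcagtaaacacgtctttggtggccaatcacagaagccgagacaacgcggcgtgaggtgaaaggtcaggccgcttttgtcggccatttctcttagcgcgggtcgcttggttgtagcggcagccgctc
Magohb, chr6:131293195-131293494, minus strand: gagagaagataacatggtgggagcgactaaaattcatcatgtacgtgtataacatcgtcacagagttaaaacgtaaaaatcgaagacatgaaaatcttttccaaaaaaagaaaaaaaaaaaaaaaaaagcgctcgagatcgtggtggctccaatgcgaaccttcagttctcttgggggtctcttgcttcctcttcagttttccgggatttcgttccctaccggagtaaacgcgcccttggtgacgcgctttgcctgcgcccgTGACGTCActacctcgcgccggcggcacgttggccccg
Snrpa, chr7:27196222-27196521, minus strand, 1 of 2 listed promoters: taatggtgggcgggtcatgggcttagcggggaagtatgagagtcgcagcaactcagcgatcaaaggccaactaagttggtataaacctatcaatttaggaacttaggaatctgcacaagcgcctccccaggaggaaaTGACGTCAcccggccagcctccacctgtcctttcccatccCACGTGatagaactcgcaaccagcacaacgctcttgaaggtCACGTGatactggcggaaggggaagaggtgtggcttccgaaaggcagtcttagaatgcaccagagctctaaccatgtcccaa

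Of the 47 members 40 had a promoter in the RefSeq table, and 1 of these (2.5%), Snrpa, held the E-box on either strand, against 8.09% of the promoters of 27025 genes and 10.9% of those of 12203 coding genes tested. The E-boxes of Snrpa begin 73 and 32 bases before the start site. The D-box TTATGNAA, bound by clock output factors, was in 0 of 40 windows (3.99% of all genes and 2.61% of coding genes tested), and the ROR element TAGGTCA was in 1, that of Srsf9 (2.97% and 2.29%). The response element TGACGTCA, which reads the same on both strands, was in 4 windows (10%), those of Snrpg, Snrpa, Lsm2 and Magohb, against 2.03% of all genes and 3.28% of coding genes tested. In Magohb it begins at base 13 counted from the start site, and in Snrpa 113 bases before it. A match describes letters in a window and does not show binding. Whether the motifs relate to the fold changes was not tested.

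Each library held 19.4 to 39 M (1e6) counts in all, and the 47 members held 0.463 to 0.552% of them. The share of ribosomal RNA (rRNA) counts was 0.124 to 0.309% in 8 libraries, all 4 KO ZT18 libraries, KO ZT6 replicate 7 and WT ZT12 replicates 4 to 6, and 0.470 to 1.40% in the other 30. These 8 are called the low-rRNA libraries. At ZT18 this difference and the genotype cannot be told apart. RNA of 1 sex was found in 5 KO and 8 WT libraries, although the labels give both sexes. The 12 OPC markers summed to 12400 to 18800 counts per M (CPM) and the 12 microglia markers to 3810 to 17400 CPM, so RNA of other cells was present. In such bulk samples fewer cells of a type and less RNA per cell cannot be told apart. Arntl, the mouse symbol of Bmal1, had 17.7 to 23.4 CPM (median 20.9) in KO and 19.3 to 33.2 CPM (median 21.8) in WT libraries (log2 fold change -0.17, edgeR adjusted p = 0.183). Its gene count includes the exons that remain after recombination and so does not check the genotype.

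Per kilobase of the length listed in the count table, 4 SR genes gave the highest levels of the 47 and Magohb the lowest. Srsf5, which binds exonic enhancers, led with a mean of 113 FPKM over the 38 libraries (range 78.9 to 150), followed by Srsf2 at 101, Srsf6 at 96.1 and Srsf7 at 77.5 FPKM. Among core proteins Snrpd1 averaged 57.0 and Snrpb 55.8 FPKM, whereas Snrpf averaged 17.1, Snrpg 16.7 and Snrpd3 11.7 FPKM, although these proteins join the same ring. Lsm5 averaged 6.39 FPKM and had the widest spread over libraries relative to its mean, between 0.642 and 13.0 FPKM. Magoh averaged 29.7 FPKM and its paralog Magohb 3.49 FPKM, the lowest of the 47. The listed length was shorter than the union of exons in GENCODE M21 for 3 genes, Snrpd1, Sf3b2 and Srsf7, which raises their FPKM relative to the other 44. It was 837 against 2052 bases for Snrpd1, 3231 against 6822 for Sf3b2 and 2279 against 3550 for Srsf7. The ranks of these 3 genes therefore depend on the length used.

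Group means of the small snRNP genes ran from 4.77 to 5.19 log2 CPM over the 8 groups, and those of the SR genes from 7.25 to 7.40. The mean log2 CPM of the 19 small snRNP genes was 5.18 ± 0.201 (SD, n = 4), 4.99 ± 0.191 (n = 7), 4.81 ± 0.0526 (n = 4) and 5.19 ± 0.0536 (n = 4) in KO libraries over the 4 times from ZT0 to ZT18. In WT libraries it was 4.77 ± 0.243 (n = 4), 4.90 ± 0.0641 (n = 5), 5.00 ± 0.0805 (n = 6) and 4.91 ± 0.0525 (n = 4). The KO group was thus above WT at ZT0 and ZT18 and below it at ZT12. At ZT18 the KO libraries lay between 5.11 and 5.24 and the WT libraries between 4.85 and 4.98, without overlap. At ZT12 the KO libraries, at 4.74 to 4.87, met the WT range of 4.87 to 5.08 at its lower end.

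For the mean of the 11 SR genes the genotypes overlapped at each time. It was 7.25 ± 0.099, 7.37 ± 0.075, 7.40 ± 0.0844 and 7.25 ± 0.04 log2 CPM in KO at the 4 times, and 7.29 ± 0.145, 7.40 ± 0.0846, 7.35 ± 0.106 and 7.30 ± 0.0486 in WT. The difference of small snRNP minus SR means, taken within each library, was -2.07 ± 0.158, -2.38 ± 0.234, -2.58 ± 0.133 and -2.06 ± 0.0606 in KO, against -2.52 ± 0.369, -2.50 ± 0.0596, -2.35 ± 0.116 and -2.39 ± 0.0609 in WT. At ZT18 it ran from -2.13 to -1.99 in KO and from -2.48 to -2.34 in WT, so no library of one genotype reached the other. At ZT0 WT replicate 4 stood at -2.04, among the KO libraries (-2.22 to -1.87), while the other 3 WT libraries lay between -2.88 and -2.45. These means describe chosen genes and carry no test.

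**Figure D1:**
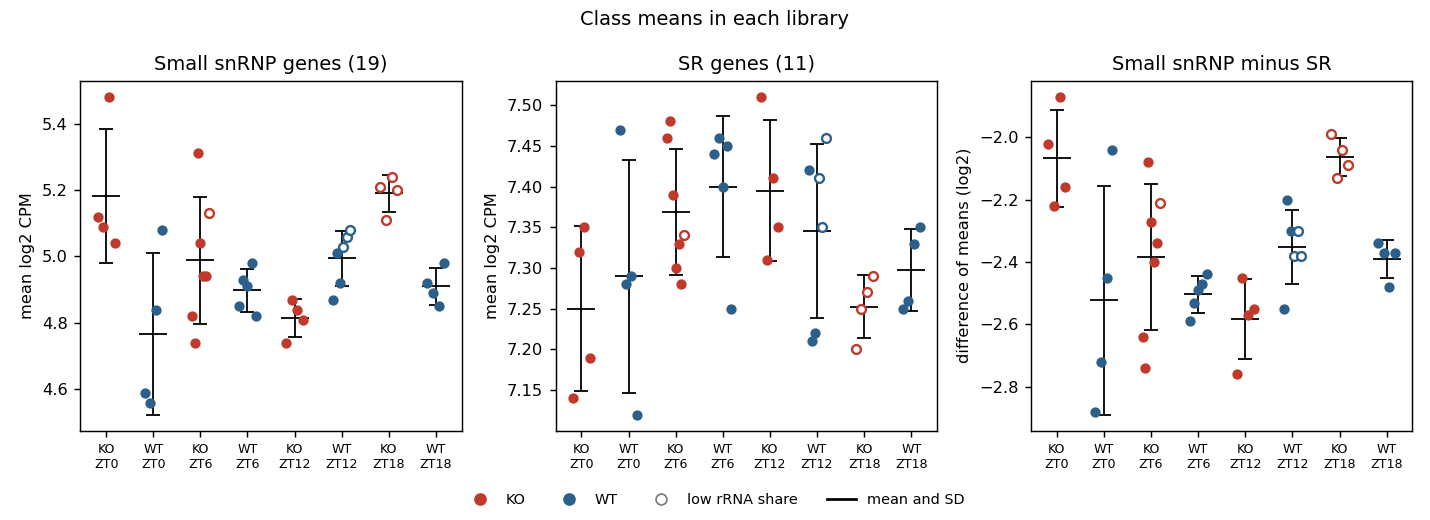
Mean log2 CPM of the 19 small snRNP genes (left), of the 11 SR genes (middle) and their difference (right) in each of the 38 libraries, KO beside WT at each ZT; points are libraries, open points have a low rRNA share, and bars give mean and SD. The 3 vertical scales differ. Small snRNP means of KO lie at 5.11 to 5.24 at ZT18, above WT at 4.85 to 4.98, while SR means overlap at all 4 times.

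Over all times, 2 members rose in KO, Snrpf of the Sm ring and Magohb of the exon junction complex, and 0 fell. Counts were tested by quasi-likelihood in edgeR, p-values were adjusted over all 22798 genes by the Benjamini-Hochberg method, and a gene is called at an adjusted p under 0.05. In this comparison 0.0921% of the genes tested were called, 0.0658% higher in KO. No member had all KO libraries above or below all WT libraries over all times, where KO lay above in 0.00439% of genes. Fold changes were positive for 19 of 19 small snRNP genes (median log2 0.13), for 3 of 11 SR genes (median -0.03) and for 10398 of the 22798 genes tested (median -0.02). Of the small snRNP genes 1 was called, and of the SR genes 0, with 9 and 2 at an unadjusted p under 0.05. Red blood cell markers were positive for 8 of 8 (median 0.37, 0 called, 5 at an unadjusted p under 0.05) and neuron markers for 11 of 12 (median 0.16, 0 called, 4 at an unadjusted p under 0.05), and their part in the result was not tested.

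Snrpf (chromosome 10, 93583029 to 93589706, minus strand) encodes the SmF protein. At ZT0 it had 13.9, 18.5, 16.2 and 16.9 CPM in KO libraries and 10.9, 10.2, 12.8 and 13.1 CPM in WT libraries. At ZT18 it had 18.3, 17.2, 22 and 20.2 CPM in KO and 10.8, 10.2, 10.2 and 13.5 CPM in WT. KO libraries lay above WT libraries at both of these times, with no overlap. At ZT6 KO libraries ran from 10.6 to 21 CPM (median 13.7) and WT libraries from 10 to 16.5 CPM (median 12.9). At ZT12 KO libraries had 18.6, 12.4, 16.9 and 16.4 CPM and WT libraries 12.4 to 17.8 CPM (median 15.7). The genotypes overlapped at these 2 times. The log2 fold change over all times was 0.40 (SE 0.0816, adjusted p = 0.0346). Exons of 4933408J17Rik and Ccdc38 overlap Snrpf on the other strand, and the strand setting of the counting is not given in the sources used here. Without the low-rRNA libraries, a fit that leaves out ZT18, the fold change of Snrpf was 0.28 (adjusted p = 0.59). Its call did not hold for 16 of the 38 libraries left out in turn (adjusted p at most 0.0919), namely WT ZT0 replicates 1 to 3, WT ZT6 replicates 1 and 5, WT ZT12 replicate 1, WT ZT18 replicates 1 to 3, KO ZT0 replicates 2 and 3, KO ZT12 replicates 1, 3 and 4, and KO ZT18 replicates 3 and 4. Without WT ZT0 replicate 4 the count of members called was 6, with Snrpd3, Lsm4, Lsm7 and Magoh added.

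Magohb (chromosome 6, 131284388 to 131293244, minus strand) encodes a Mago protein nearly identical to that of Magoh. At ZT0 it had 7.00, 7.77, 8.67 and 7.66 CPM in KO libraries and 5.16, 4.54, 4.95 and 4.66 CPM in WT libraries. KO libraries were all above WT libraries there. At ZT12 it had 7.31, 6.59, 6.76 and 6.67 CPM in KO, against 4.78 to 6.6 CPM (median 5.49) in WT, and at ZT18 6.73, 5.90, 7.14 and 6.4 CPM in KO, against 6.22, 5.61, 5.22 and 5.93 CPM in WT. At ZT6 KO ran from 4.58 to 7.57 CPM (median 6.02) and WT from 3.78 to 5.86 CPM (median 4.86). The genotypes overlapped at these 3 later times, with the KO median the higher. Over all times its log2 fold change was 0.39 (SE 0.0735, adjusted p = 0.0163), and this call held without any 1 of the 38 libraries (adjusted p at most 0.0497). It was lost without the low-rRNA libraries (0.42, adjusted p = 0.28), without the 1-sex libraries (0.45, adjusted p = 0.438) and with no filter on low counts (0.38, adjusted p = 0.0933), fits that called 5, 8 and 18 genes in all. Gm44958 overlaps exons of Magohb on the same strand, so that reads shared with it cannot be told apart.

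Magoh, the more abundant paralog, pointed the same way without a call. It had 23.3, 24.1, 32.6 and 26.7 CPM in KO and 17.4, 20.3, 19.3 and 25.1 CPM in WT at ZT0, with overlap, and over all times its log2 value was 0.24 (SE 0.0741, adjusted p = 0.126). The coding sequences of Magohb and Magoh are 81.5% identical over 437 bases, and those of Snrpn and Snrpb 80.9% over 686 bases. Snrpn, an imprinted gene whose protein takes the place of SmB in brain, was at 0.16 over all times (SE 0.0767, adjusted p = 0.327), and Snrpb, which encodes SmB, had 0.14 (SE 0.051, adjusted p = 0.18). In the other groups the smallest p-values over all times were those of Lsm4 of the U6 ring (0.28, SE 0.0653, adjusted p = 0.0826), Srsf9 (0.20, SE 0.0589, adjusted p = 0.126) and Snrpc, the U1 protein that stabilises pairing with the 5′ splice site (0.10, SE 0.0411, adjusted p = 0.223). Sf3b6, which contacts the branch point, had 0.15 (SE 0.0627, adjusted p = 0.237), and Lsm1, which acts in messenger RNA decay, had 0.11 (SE 0.0604, adjusted p = 0.399). None of these 8 passed the test.

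**Figure D2:**
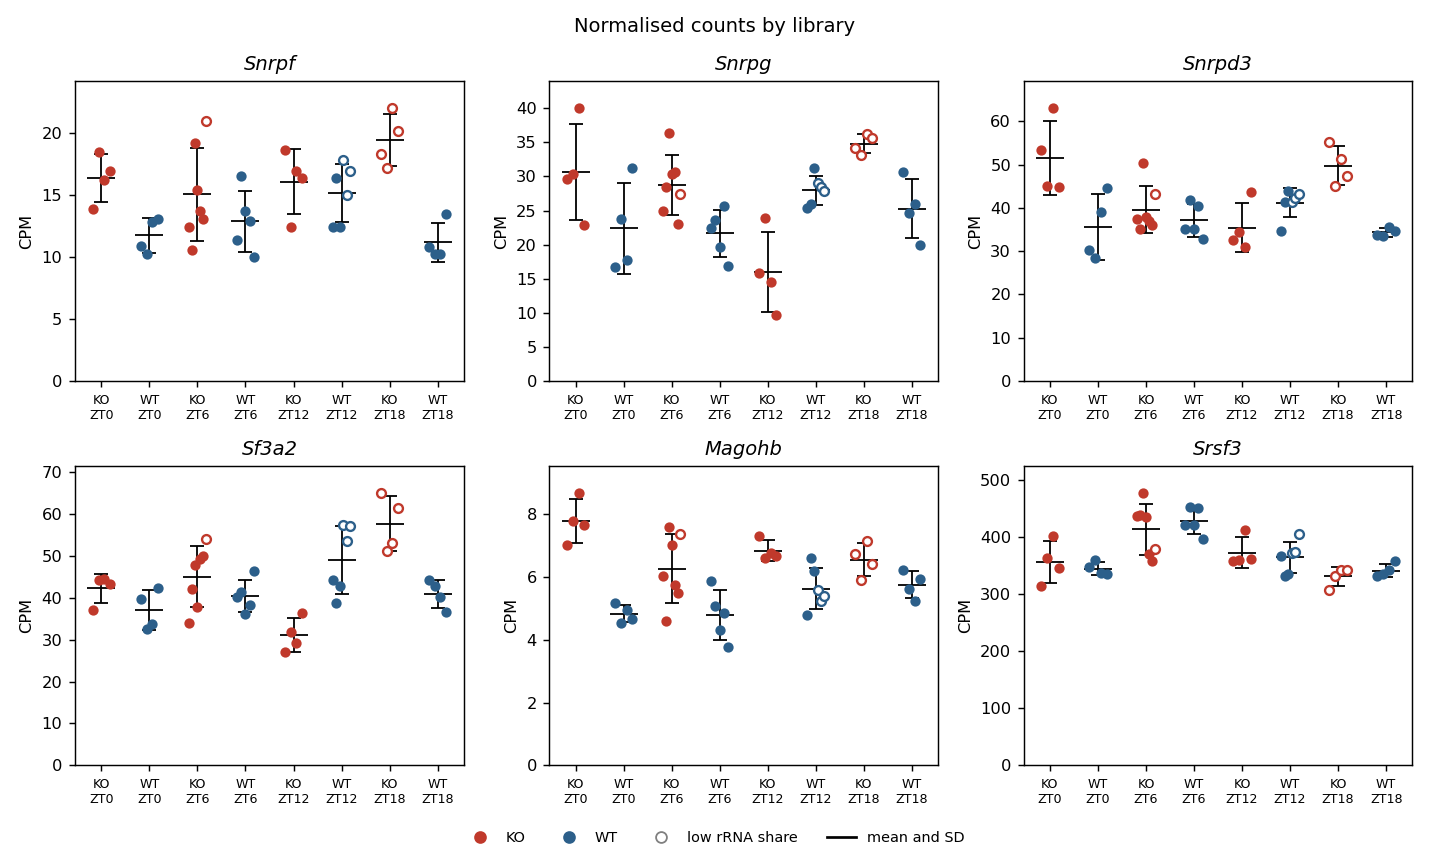
CPM of Snrpf, Snrpg, Snrpd3, Sf3a2, Magohb and Srsf3 in each library, KO beside WT at each ZT, with mean and SD; open points have a low rRNA share and all axes start at 0. Magohb at ZT0 is at 7.00 to 8.67 CPM in KO and 4.54 to 5.16 CPM in WT, and Snrpg at ZT12 is at 9.68 to 23.9 CPM in KO and 25.4 to 31.3 CPM in WT.

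At lights on (ZT0), the small snRNP genes had positive fold changes together, but Magohb was the member that passed the test. Its log2 fold change was 0.69 (SE 0.158, adjusted p = 0.0464), and 0.285% of all genes tested were called, 0.184% higher in KO. All 19 small snRNP genes were positive with a median of 0.38, the Sm ring at 0.45, the U6 ring at 0.35 and the U1 and U2 genes at 0.23. SR genes had a median of 0.00, with 4 of 11 positive, and all genes tested a median of -0.05. At an unadjusted p under 0.05 there were 16 of 19 small snRNP genes, 0 of 11 SR genes and 4191 of the 22798 genes tested. KO libraries lay above WT libraries without overlap for 8 members, Snrpd1, Snrpd3, Snrpf, Snrpc, Lsm3, Lsm7, Lsm12 and Magohb, and below for 0. Over all genes tested the KO libraries lay above in 2.60% and below in 2.64%.

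Values of the Sm ring at ZT0 showed how much rested on 1 control library. Snrpd3 had 53.4, 45.0, 63.0 and 44.8 CPM in KO, against 30.3, 28.4, 39.1 and 44.5 CPM in WT replicates 1 to 4. Snrpd2 had 52.2, 53.2, 75.1 and 55.2 CPM in KO, against 29.2, 33.3, 38.6 and 55.4 CPM in WT. Lsm2 of the U6 ring had 27.7, 26.4, 31.4 and 24.7 CPM in KO, against 16.1, 18.1, 18.2 and 27.6 CPM in WT. In each of these genes WT replicate 4 was the highest control, at or above the lowest KO library for Snrpd2 and Lsm2. Without this library edgeR called 16 members, all higher in KO, among 9.37% of the 23567 genes then tested (5.69% higher in KO). They were 10 of the 19 small snRNP genes, Lsm12, Lsm14a, Sf3b4, Sf3b5, Sf3b6 and Magohb, and 0 of the 11 SR genes. In that fit the log2 fold changes were 0.80 for Snrpd2 (SE 0.193, adjusted p = 0.00844), 0.75 for Lsm7 (SE 0.202, adjusted p = 0.0165), 0.65 for Snrpd3 (SE 0.135, adjusted p = 0.00335) and 0.65 for Lsm2 (SE 0.154, adjusted p = 0.00787). The small snRNP median was then 0.43 and the SR median -0.06. This fit was singled out after its values were seen. The library left out was the highest control for these genes, so leaving it out widens the difference. Its adjusted p-values are therefore no separate support for a difference at ZT0.

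The ZT0 call of Magohb was near the threshold. It did not hold for 25 of the 38 libraries left out in turn, with adjusted p at most 0.35 and fold changes of 0.63 to 0.73. The libraries were WT ZT0 replicates 1 to 3, WT ZT6 replicates 1 to 4, WT ZT12 replicates 4 to 6, WT ZT18 replicates 1 to 3, KO ZT0 replicates 1 to 3, KO ZT6 replicates 4 to 6, KO ZT12 replicates 1 and 2, and all 4 KO ZT18 replicates. Snrpd3 was also called without WT ZT12 replicate 1, KO ZT0 replicate 4 or KO ZT12 replicate 4 (2 members each), and Snrpd3 and Lsm7 without KO ZT6 replicate 3 (3 members). The summed microglia markers were 3810 to 7640 CPM in KO and 5390 to 13200 CPM in WT at ZT0, with 12 of 12 markers lower in KO. The summed OPC markers were 15600 to 18100 CPM in KO and 13400 to 17100 CPM in WT, with 10 of 12 higher. Neuron markers were higher for 11 of 12 (median 0.22), at 1190 to 1580 CPM in KO and 917 to 1430 CPM in WT. None of these 36 was called by edgeR. At an unadjusted p under 0.05 there were 4 microglia, 4 OPC and 1 neuron markers, and their part in the result was not tested.

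At ZT6, midway through the light phase, edgeR called 0 of the 47 members, where 0.0132% of all genes tested were called, 0.00877% higher and 0.00439% lower in KO. DESeq2 and limma-voom also called 0 members. At an unadjusted p under 0.05 there were 4 members, Snrpg (log2 fold change 0.41), Magohb (0.39), Srsf9 (0.26) and Srsf11 (-0.23). The small snRNP median was 0.13, with 15 of 19 positive, and the SR median -0.05, with 4 of 11 positive, against 0.00 for all genes tested. No member separated the genotypes without overlap at this time, while KO libraries lay above WT in 0.136% and below in 0.140% of all genes.

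At lights off (ZT12) 7 members fell in KO and 0 rose: Snrpg, Snrpd2 and Snrpa of the small snRNP genes, and Sf3a2, Sf3b4, Sf3b2 and Sf3b5 of the SF3 complexes. In all, 5.00% of the genes tested were called, 3.69% lower and 1.31% higher in KO. Small snRNP genes had a median log2 fold change of -0.11, with 13 of 19 negative, and SF3 genes -0.14, with 5 of 9 negative. The SR median was 0.04, with 9 of 11 positive, 0 called and 1 at an unadjusted p under 0.05, and the median of all genes tested -0.01.

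Snrpg, which encodes SmG, had 15.8, 23.9, 14.5 and 9.68 CPM in KO and 25.4 to 31.3 CPM (median 28.1) in the 6 WT libraries, without overlap (log2 fold change -0.81, SE 0.18, adjusted p = 0.00786). Snrpd2, which encodes SmD2, had 22.2, 43.2, 21 and 46.4 CPM in KO and 43.9 to 60.4 CPM (median 53.3) in WT. Here KO replicate 4 reached the WT range and replicates 1 and 3 were far below it (-0.67, SE 0.175, adjusted p = 0.0211). Snrpa, which encodes the A protein of the U1 snRNP, had 59.0, 71.7, 72.3 and 73.7 CPM in KO and 76.9 to 101 CPM (median 85.9) in WT, without overlap (-0.31, SE 0.0931, adjusted p = 0.0422). Not every Sm gene followed, for Snrpe had a fold change of 0.34 (SE 0.165, adjusted p = 0.243) and Snrpd1 0.04 (SE 0.106, adjusted p = 0.874).

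The SF3 genes that fell included members of both complexes. Sf3a2 of SF3A had 27.0, 31.7, 29.2 and 36.4 CPM in KO and 38.8 to 57.4 CPM (median 48.9) in WT, without overlap (-0.66, SE 0.123, adjusted p = 0.00223). Sf3b4, an RNA-binding protein of SF3B, had 55.9, 58.2, 52.5 and 53.4 CPM in KO and 60.7 to 83.8 CPM (median 77.1) in WT, also without overlap (-0.45, SE 0.0986, adjusted p = 0.00707). Sf3b2, a partner of Sf3b4 in SF3B, had 193, 215, 195 and 243 CPM in KO and 236 to 299 CPM (median 267) in WT (-0.34, SE 0.0866, adjusted p = 0.0184). The small subunit gene Sf3b5 had 18.6, 31.1, 23.7 and 35.7 CPM in KO and 34.3 to 43.4 CPM (median 40.9) in WT (-0.55, SE 0.161, adjusted p = 0.0375). For both Sf3b2 and Sf3b5 KO replicate 4 fell inside the WT range. Sf3b1, the scaffold of SF3B, pointed the other way at 0.19 (adjusted p = 0.0881). Snrpg, Snrpa, Sf3a2 and Sf3b4 were the 4 members whose KO libraries lay below WT, which was so for 3.15% of all genes, and 0 lay above (2.12%).

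Some of the ZT12 values differed between the 3 low-rRNA WT libraries and the other 3. The low-rRNA libraries were also deeper, at 28.9 to 38.1 M counts against 21.4 to 25.5 M. RNA of 1 sex was found in WT ZT12 replicates 1 to 4, and of both in replicates 5 and 6. These differences cannot be told apart, and the split was not tested. Sf3a2 averaged 56.1 CPM in the 3 low-rRNA WT libraries and 41.9 CPM in the other 3, and Sf3b2, Sf3b4 and Snrpa were higher in the low-rRNA ones too, whereas Snrpg (28.4 and 27.5 CPM), Snrpd2 (53.2 and 52.3 CPM) and Sf3b5 (40.2 and 39.8 CPM) were close. In the 3 WT libraries with an ordinary share Snrpg ran from 25.4 to 31.3, Sf3a2 from 38.8 to 44.1, Sf3b4 from 60.7 to 77.5 and Snrpa from 76.9 to 85.0 CPM. For these 4 genes KO lay below every WT library, so the lack of overlap with these 3 follows and is no separate check. The small snRNP mean was 4.81 log2 CPM in KO, 4.94 in these 3 WT libraries and 5.06 in the 3 low-rRNA ones, while the difference of small snRNP minus SR means was -2.35 in both WT sets. Without the low-rRNA libraries 0 members were called at ZT12, in a fit that called 1 of 22965 genes in all, with Snrpg at -0.78 (adjusted p = 0.228), Sf3a2 at -0.43 (adjusted p = 0.237) and Snrpd2 at -0.65 (adjusted p = 0.285). The count was 3 without KO ZT12 replicate 1 or 3 (Snrpg, Sf3a2 and Sf3b4) and 4 without WT ZT12 replicate 6 (Snrpd2 added). Snrpa was also lost without WT ZT12 replicate 4 or 5, WT ZT18 replicate 1, 2 or 3, KO ZT0 replicate 2, KO ZT12 replicate 2 or KO ZT18 replicate 1, and Sf3b5 without WT ZT12 replicates 2 to 5. Summed oligodendrocyte markers were 418 to 473 CPM in KO and 502 to 719 CPM in WT, where 1 of the 11 markers tested fell. Of these 11, 9 were negative (median log2 fold change -0.29), and 4 were at an unadjusted edgeR p under 0.05. Summed OPC markers were 13100 to 17000 CPM in KO and 15000 to 17800 CPM in WT, where 3 of 12 fell. Of these 12, 9 were negative (median -0.34), and 9 were at an unadjusted p under 0.05. The part of these markers in the ZT12 results was not tested.

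At ZT18, midway through the dark phase, 6 members rose in KO and 0 fell: Snrpb, Snrpd3 and Snrpf of the Sm ring, Lsm4 of the U6 ring, Sf3a2 and Srsf9. Of all genes tested 2.14% were called, 1.39% higher in KO. The small snRNP median was 0.27, with 17 of 19 positive, and the SR median -0.06, with 8 of 11 negative, against 0.00 for all genes. The 8 Sm ring genes were all positive with a median of 0.39.

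Snrpb had 136, 132, 135 and 136 CPM in KO and 98.4, 105, 95.1 and 97.9 CPM in WT (log2 fold change 0.45, SE 0.109, adjusted p = 0.026). Snrpd3, which encodes SmD3, had 55.3, 45.0, 51.2 and 47.4 CPM in KO and 33.6, 33.4, 35.6 and 34.6 CPM in WT (0.54, SE 0.13, adjusted p = 0.0249). In both genes the KO libraries were all above the WT libraries, and the WT libraries were close together. Snrpf, given above, had the largest fold change of the 6 (0.79, SE 0.174, adjusted p = 0.0169). Lsm4, which binds the tail of U6, had 55.4, 51.9, 53.3 and 49.0 CPM in KO and 32.8, 33.6, 33.5 and 39.7 CPM in WT (0.59, SE 0.139, adjusted p = 0.023). Sf3a2, lower at ZT12, had 65.0, 51.2, 53.1 and 61.3 CPM in KO and 44.2, 42.7, 40.1 and 36.5 CPM in WT (0.50, SE 0.132, adjusted p = 0.0398). Neither gene's genotypes overlapped.

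Among SR genes Srsf9, a short SR protein, was the one called. It had 88.2, 90.2, 87.7 and 82.7 CPM in KO and 72.3, 66.0, 57.5 and 60.1 CPM in WT, without overlap (0.45, SE 0.126, adjusted p = 0.0498). Other SR genes separated in the opposite direction without passing the test. Srsf10, whose phosphorylation switches it from repressing to activating splicing, had 157 to 163 CPM in KO and 182 to 202 CPM in WT (-0.24, adjusted p = 0.0752). Srsf6 had 360 to 415 CPM in KO and 447 to 505 CPM in WT (-0.29, adjusted p = 0.176). In all, KO libraries lay above WT for 13 members, of which 8 were small snRNP genes and 1 an SR gene, and below for 6, of which 4 were SR genes (Srsf6, Srsf7, Srsf10 and Srsf11) and 1 a small snRNP gene (Lsm3). Over all genes the KO libraries lay above in 10.4% and below in 8.18%.

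**Figure D3:**
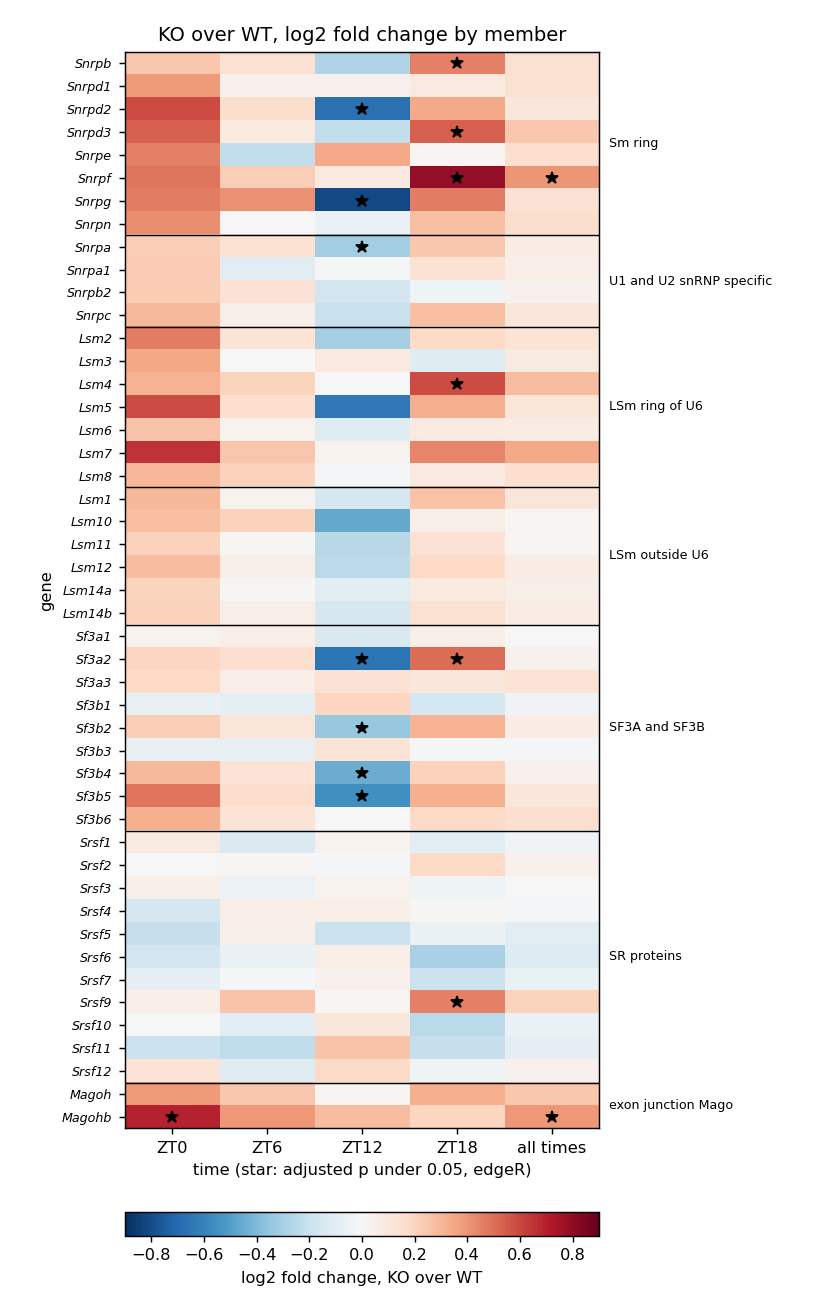
Log2 fold change of KO over WT for each of the 47 members (down the page, by role) at ZT0, ZT6, ZT12, ZT18 and over all times; red is higher and blue lower in KO, and stars mark an edgeR adjusted p under 0.05. Small snRNP genes are mostly red at ZT0 and ZT18, with medians of 0.38 and 0.27, and 7 stars at ZT12 stand on lower values.

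All KO libraries at ZT18 were low-rRNA libraries and no WT library was, so the calls cannot be told apart from that difference. With the rRNA share as a covariate 0 members were called, among 8 of all 22798 genes, and the fold changes were 0.54 for Snrpd3 (adjusted p = 0.185), 0.52 for Snrpf (adjusted p = 0.335) and 0.18 for Srsf9 (adjusted p = 0.724). Each of the 8 ZT18 libraries mattered: without WT replicates 1 to 4 the counts were 1, 1, 0 and 2, and without KO replicates 1 to 4 they were 1, 2, 0 and 0, where 44 to 254 genes were called in all. Srsf9 alone was lost in 20 further fits without a library of another time, where its adjusted p was 0.0503 to 0.059. Several marker sums were higher in KO at ZT18: oligodendrocyte 699 to 889 CPM in KO and 457 to 506 CPM in WT, red blood cell 4650 to 7810 CPM in KO and 3090 to 3520 CPM in WT, and endothelial 86.3 to 126 CPM in KO and 50.4 to 90.8 CPM in WT. In edgeR's test 3 of the 11 oligodendrocyte markers tested rose, against 0 of the 8 red blood cell and 0 of the 10 endothelial markers, with 7 and 2 of these at an unadjusted p under 0.05. Neuron markers summed to 1190 to 1390 CPM in KO and 958 to 1510 CPM in WT, with 11 of 12 positive (median log2 fold change 0.63), 1 called and 5 at an unadjusted p under 0.05. Microglia markers summed to 10100 to 14300 CPM in KO and 4460 to 12300 CPM in WT, with 12 of 12 positive (median 0.39, 0 called). Also positive were 11 of 11 oligodendrocyte (median 0.57), 8 of 8 red blood cell (0.96) and 10 of 10 endothelial markers (0.73). Of the OPC markers 7 of 12 were negative (median -0.05, 0 called, 3 at an unadjusted p under 0.05), and of the astrocyte markers 7 of 10 (median -0.02). OPC markers summed to 12400 to 16000 CPM in KO and 14400 to 17000 CPM in WT. Opalin, a marker of mature oligodendrocytes, was at 0 in 31 of the 38 libraries. The part of these cells in the result was not tested.

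The genotype difference itself changed with time for 11 of the 47 members (23.4%). This test asks with 3 degrees of freedom whether the fold change differed among the 4 times, and 9.19% of all genes tested were called. The 11 were Snrpb, Snrpd2, Snrpd3 and Snrpg of the Sm ring, Snrpa and Snrpc of U1, Lsm12, and Sf3a2, Sf3b2, Sf3b4 and Sf3b5. Of the small snRNP genes 6 of 19 were called, with 10 at an unadjusted p under 0.05, and of the SF3 genes 4 of 9. Of the SR genes 0 of 11 were called, near the share of all genes for so few. At an unadjusted p under 0.05 there were 2 of them. The smallest adjusted p-values were 0.000515 for Sf3a2, 0.00165 for Snrpg and 0.0024 for Sf3b4, and the largest was 0.0476 for Lsm12. Sf3a2 had fold changes of -0.66 at ZT12 and 0.50 at ZT18, and Snrpg -0.81 and 0.46. Without KO ZT12 replicate 1 the count was 7, without WT ZT0 replicate 4 it was 15, and without the low-rRNA libraries, which leaves out ZT18, it was 0, as it was for all 22965 genes tested there. Whether small snRNP genes as a class differed from SR genes in this respect was not tested. As all KO ZT18 libraries were low-rRNA libraries, the ZT18 part of this test cannot be told apart from that difference. Of the cell type markers 4 of 12 OPC, 4 of 11 oligodendrocyte and 2 of 12 neuron markers were called. No astrocyte, microglia, endothelial or red blood cell marker was. The part of these markers in the result was not tested.

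Within WT, 3 members changed with time of day, Snrpc, Srsf2 and Srsf3, in a test that called 4.91% of all genes. Snrpc had 37.4 to 42.7 CPM at ZT0, 50.3 to 54.3 at ZT6, 45.6 to 62.3 at ZT12 and 43.6 to 48.6 at ZT18 in WT (adjusted p = 0.00103). Srsf3, which shuttles to the cytoplasm and aids export of messenger RNA, had 335 to 361, 397 to 453, 332 to 406 and 332 to 358 CPM at these times (adjusted p = 0.019), and Srsf2 242 to 281, 315 to 344, 268 to 331 and 257 to 271 CPM (adjusted p = 0.0413). Both SR genes had their highest WT mean at ZT6, 429 and 330 CPM. In KO their highest mean was at ZT6 too, 414 CPM for Srsf3 (358 to 478 CPM) and 332 CPM for Srsf2 (294 to 373 CPM). For neither did the genotype difference change with time (adjusted p = 0.87 for Srsf3 and 0.634 for Srsf2). Srsf3 was lost without WT ZT6 replicate 2 or 4, where 1 member was called. Srsf2 was lost in 21 of the 38 fits, among them those without any 1 WT library of ZT0, ZT6 or ZT18. In the main fit 8 of 10 astrocyte, 5 of 8 red blood cell and 3 of 12 neuron markers also changed with time in WT. No marker of OPCs, oligodendrocytes, microglia or endothelial cells was called. The part of these markers in the time results was not tested.

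Within KO, 21 members changed with time, against 21.9% of all genes tested. They were 7 small snRNP genes (Snrpb, Snrpd2, Snrpd3, Snrpg, Snrpn, Snrpa and Lsm2), 5 SF3 genes (Sf3a2, Sf3b1, Sf3b2, Sf3b4 and Sf3b5), 6 SR genes (Srsf2, Srsf3, Srsf6, Srsf7, Srsf10 and Srsf11), and Lsm1, Lsm11 and Lsm12. Sf3a2 (adjusted p = 0.000185) averaged 42.2 ± 3.53, 45.0 ± 7.25, 31.1 ± 4.05 and 57.7 ± 6.57 CPM in KO at ZT0, ZT6, ZT12 and ZT18. Snrpg (adjusted p = 0.000671) averaged 30.7 ± 7.05, 28.7 ± 4.36, 16 ± 5.91 and 34.8 ± 1.38 CPM. Both had their lowest mean at ZT12 and their highest at ZT18. All 4 KO ZT18 libraries were low-rRNA libraries, so a change to ZT18 in KO cannot be told apart from that difference. A call in KO and none in WT does not show a difference between genotypes, which the test above addresses. Each genotype had 19 libraries. The count was 16 without KO ZT12 replicate 1 or 3, and at least 17 without any other library. It was 8 without the low-rRNA libraries (2050 of 22965 genes in all), 10 without the 1-sex libraries (3034 of 23700) and 13 with no filter (4435 of 40194). Cell type markers changed with time in KO too in the main fit. Those called were 12 of 12 neuron, 9 of 10 astrocyte, 7 of 8 red blood cell and 7 of 10 endothelial markers. Also called were 8 of 12 microglia, 6 of 11 oligodendrocyte and 4 of 12 OPC markers. Their part in the time results was not tested.

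The other members called for time in KO differed in where they were highest. Snrpn (adjusted p = 0.0172), Lsm2 (adjusted p = 0.0176), Lsm1 (adjusted p = 0.0454) and Lsm11, of the U7 snRNP that processes histone messages (adjusted p = 0.0023), had their highest KO mean at ZT0. Lsm11 averaged 29.1 ± 3.87, 19.7 ± 3.11, 21.7 ± 1.87 and 28.0 ± 1.61 CPM over the 4 times, and Snrpn 59.4 ± 9.95, 40.4 ± 7.21, 43.4 ± 6.89 and 51.8 ± 5.44 CPM. Sf3b1 (adjusted p = 0.00719), Srsf7 (adjusted p = 0.0265), Srsf10 (adjusted p = 0.0118) and Srsf11 (adjusted p = 0.0251) had their highest KO mean at ZT12, and Srsf6 (adjusted p = 0.044) at ZT6. These 5 had their lowest at ZT18, where Sf3b1 averaged 544 ± 29.8 CPM, against 565 ± 32.2, 624 ± 32.0 and 673 ± 49.8 CPM at ZT0, ZT6 and ZT12. Srsf11 averaged 252 ± 13.6, 276 ± 49.1, 317 ± 35.2 and 227 ± 7.81 CPM from ZT0 to ZT18. The remaining adjusted p-values were 0.00655 for Snrpb, 0.00317 for Snrpd2, 0.00368 for Snrpd3, 0.0171 for Snrpa, 0.0217 for Lsm12, 0.00307 for Sf3b2, 0.00194 for Sf3b4, 0.0102 for Sf3b5, 0.0242 for Srsf2 and 0.0126 for Srsf3.

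Fold changes followed gene length across the whole table, and small snRNP genes are on the whole shorter than SR genes. Their exonic lengths ran from 792 to 6521 bases (median 2618), and those of SR genes from 1653 to 8446 bases (median 3988). Coding genes under 1000 bases had median log2 fold changes of 0.18, 0.14, -0.17 and 0.22 over the 4 times, and those of 4000 bases or more -0.03, -0.01, 0.00 and 0.00. Both class median lengths fall in the length bin just under 4000 bases. Coding genes in that bin had medians of 0.08, 0.06, -0.12 and 0.13 over the 4 times. In the length bins under 4000 bases edgeR called 6.2 to 6.71% of coding genes lower and 0.378 to 0.478% higher at ZT12. At ZT18 it called 2.67 to 4.33% of them higher and at most 0.139% lower. Among all genes tested 3.69% were lower at ZT12 and 1.39% higher at ZT18. Small snRNP medians were 0.38, 0.13, -0.11 and 0.27, and SR medians 0.00, -0.05, 0.04 and -0.06. At ZT0 the small snRNP median was also above that of the shortest genes, and at ZT18 these were 0.27 and 0.22. At ZT12 the small snRNP median (-0.11) was no lower than that of the bin just under 4000 bases (-0.12). With an offset that removes the trend with length in each library, the small snRNP medians were 0.40, 0.12, -0.04 and 0.21 and the SR medians -0.02, -0.01, 0.11 and -0.11 at the 4 times. Then 3 members fell at ZT12 (Sf3a2, Snrpg and Snrpd2) and 1 rose at ZT18 (Snrpf at 0.81, adjusted p = 0.0423). Over all times Snrpf (0.48, adjusted p = 0.0251) and Magohb (0.40, adjusted p = 0.00999) were called in that fit as well.

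**Figure D4:**
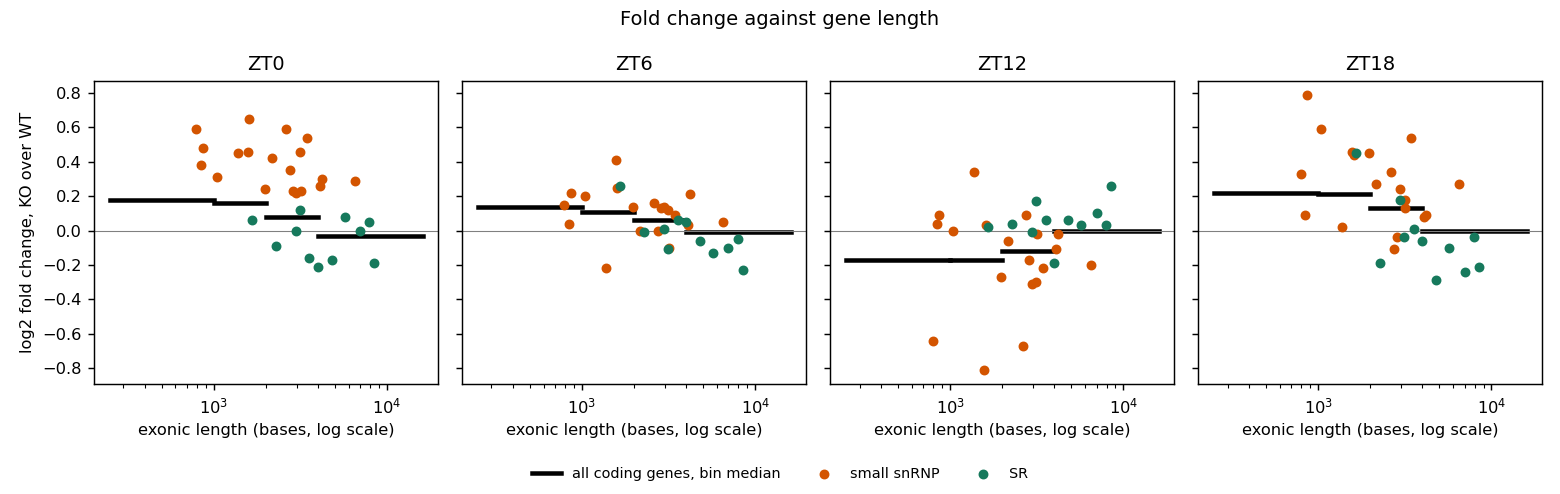
Log2 fold change of KO over WT against exonic length (log scale) at the 4 times for small snRNP and SR genes (points), with the median of all coding genes in each length bin (black lines). Bins under 1000 bases stand at 0.18, 0.14, -0.17 and 0.22 from ZT0 to ZT18, and at ZT0 most small snRNP genes lie above the lines.

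Some counts may include reads of copies. A pseudogene at least 95% identical over 100 bases or more exists for 16 members. Counts assigned to such copies were 83.0% of the member's own for Lsm5 and 42.5% for Lsm7, but 12.4% for Snrpg, 9.56% for Snrpe and 3.25% for Snrpf. Values of Lsm5 and Lsm7 are therefore uncertain. Lsm5 had 1.44 to 5.07 CPM in KO and 1.61 to 7.07 CPM in WT at ZT12, a spread of several fold within each group. Exons of another gene overlap those of 15 members, 5 of them on the same strand, and among the genes called above this holds for Snrpf, Magohb, Snrpd3, Snrpn, Snrpa, Sf3a2, Sf3b2, Sf3b4 and Srsf2.

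Other genes of the pathway, from 7 lists of splicing factors, had 0 calls by edgeR over all times, at ZT0 and at ZT6. At an unadjusted p under 0.05 over all times there were between 4 and 8 genes in each list. The 13 genes that assemble snRNPs, among them Phax, which exports small nuclear RNA (0.18 over all times, adjusted p = 0.131), had 0 calls in all 8 tests, with 5 genes at an unadjusted p under 0.05 over all times. For all the lists, the share to compare is that of all genes tested. At ZT12 3.69% of these fell and 1.31% rose, and at ZT18 0.746% fell and 1.39% rose. Of 16 U5 and tri-snRNP genes 2 fell at ZT12, Sart1 (-0.42, adjusted p = 0.0357) and the helicase gene Ddx23 (-0.28, adjusted p = 0.0331). Of 16 other U1, U2 and 3′ splice site factors 3 fell at ZT12, Sf1, which binds the branch point (-0.40, adjusted p = 0.0102), Puf60 (-0.36, adjusted p = 0.0095) and U2af2 (-0.26, adjusted p = 0.0374). In that list U2surp rose at ZT12 (0.28, adjusted p = 0.0135) and fell at ZT18 (-0.27, adjusted p = 0.0463). Of 20 Prp19 and catalytic factors 1 rose at ZT12, Crnkl1 (0.59, adjusted p = 0.0108).

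Of 16 exon junction and decay factors 1 fell at ZT12, Casc3 (-0.23, adjusted p = 0.0489), and 1 rose at ZT18, Upf3a, which links the complex to nonsense-mediated decay (0.44, adjusted p = 0.0239). Rbm8a, the direct binding partner of Mago, had 0.45 at ZT0 (SE 0.138, adjusted p = 0.081) and 0.20 over all times (SE 0.0646, adjusted p = 0.136). Sap18, of a complex that joins the exon junction complex, had 0.35 at ZT0 (SE 0.114, adjusted p = 0.095). Neither passed the test, and whether they differed from Magohb was not tested. The 12 SR kinases and SR-related genes were all negative over all times, with a median of -0.11, 0 calls and 5 at an unadjusted p under 0.05, and Srrm2 had -0.29 (adjusted p = 0.12). Of the 25 hnRNP genes, which often oppose SR proteins, 3 fell and 1 rose at ZT12, and 4 rose at ZT18. Pcbp1 had -0.48 at ZT12 (adjusted p = 0.00748) and 0.46 at ZT18 (adjusted p = 0.0284), and Hnrnpab had 0.63 at ZT18 (adjusted p = 0.0193). The difference between genotypes changed with time for 9.19% of all genes tested. In the lists it did so for 3 of 16 U5, 6 of 16 other U1 and U2 and 2 of 20 Prp19 genes. For the other lists the counts were 3 of 16 exon junction, 1 of 12 SR-related, 9 of 25 hnRNP and 0 of 13 assembly genes. The shares of the Prp19 (10%) and SR-related (8.33%) lists were near that of all genes.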

How the data were processed

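The authors deposited raw read counts for each gene in 38 libraries, each made from RNA of 2 pooled mice. Per the submitters' processing notes, fastp, HISAT2 2.0.5 and featureCounts 1.5.0-p3 were used on GRCm38 (mm10). The annotation release, the strand setting and the treatment of reads that map to several places were not given in the sources used here. Groups came from the sample titles. Every pair of libraries in a group differed beyond sampling noise (76 pairs, 14359 genes, smallest chi-square per degree of freedom 12.21). P-values measure the spread between libraries.

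Counts were fitted in 1 edgeR 4.0.16 quasi-likelihood model over the 8 groups (R 4.3.3, TMM scaling, filterByExpr by group, 22798 genes holding 99.95% of counts). P-values were adjusted over the whole table by Benjamini-Hochberg, and genes under 0.05 were called. The difference over all times is the mean of the 4 within-time differences. CPM use the TMM-scaled library total, FPKM are CPM per kilobase of the listed length, and class means are of log2 CPM with a prior count of 2. Low-rRNA libraries are those under 0.4%. On simulated counts for the comparison over all times (22023 genes) the model recovered 40% of genes changed by 0.25 log2, 96% at 0.5 and 100% at 1 and 2, and called 5 unchanged genes. Alternatives were RLE scaling, library size alone, no filter, DESeq2 1.42.0, limma-voom (limma 3.58.1), a replicate block, the rRNA share as a covariate, a length offset, and fits without the low-rRNA, the 1-sex or single libraries.

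Members were named with their statistics where called in any comparison, where their p over all times was the smallest of their role, or where they form a close pair. Srsf10 and Srsf6 at ZT18, Snrpd2, Snrpd3, Lsm2 and Lsm7 at ZT0, Snrpe and Snrpd1 at ZT12 and Lsm5 were chosen after their values were seen. The members and lists were chosen with earlier results of these data known. A result for 1 gene of another splicing list is not reported here. Replicate numbers were not taken to pair libraries.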

Additional observations from a re-analysis of the deposited data

Results flagged for a closer look

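In 8 of 128 group-by-measure sets (13 members called in a KO with WT comparison and the small snRNP mean, the SR mean and their difference, each in groups of 4 to 7 libraries), 1 library lay far from the others of its group; chance alone flags about 1 set in 20. KO ZT0 replicate 3 was high for Snrpd2 (75.1 CPM, the others 52.2 to 55.2) and Snrpa (95.1 CPM, the others 75.9 to 79.0). KO ZT6 replicate 3 was high for Snrpd2 (71.7 CPM, the others 43.3 to 55.3). KO ZT12 replicate 1 was low for Snrpa (59.0 CPM, the others 71.7 to 73.7). WT ZT0 replicate 4 was high for Sf3b2 (256 CPM, the others 210 to 212), WT ZT12 replicate 1 low for Snrpd3 (34.6 CPM, the others 41.4 to 43.9) and WT ZT18 replicate 4 high for Lsm4 (39.7 CPM, the others 32.8 to 33.6). The SR mean was low in WT ZT6 replicate 5 (7.25 log2 CPM, the others 7.40 to 7.46).

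The genotype difference depended on time for 11 members by edgeR's quasi-likelihood test. The adjusted p was 0.00766 for Snrpb, 0.00566 for Snrpd2, 0.00672 for Snrpd3, 0.00165 for Snrpg, 0.0129 for Snrpa and 0.012 for Snrpc. It was 0.0476 for Lsm12, 0.000515 for Sf3a2, 0.0033 for Sf3b2, 0.0024 for Sf3b4 and 0.0115 for Sf3b5. Without the low-rRNA libraries 0 of them passed, as did 0 of all 22965 genes tested there.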

How the results depend on the processing

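Counts of members called were 2 over all times, 1 at ZT0, 0 at ZT6, 7 at ZT12, 6 at ZT18, 11 for genotype by time, 3 for time in WT and 21 for time in KO. Over all times the count was 1 with library size alone, without a filter or with the rRNA covariate, 5 with DESeq2, and 0 without the low-rRNA or the 1-sex libraries. Among all 22798 genes tested DESeq2 called 244 there, and the main fit 21. At ZT0 the count of members was 0 with RLE scaling, library size alone, no filter, limma-voom or the length offset and without either set of libraries. It was 6 with DESeq2, and 2 with the replicate block, which added Snrpd3. Among all genes DESeq2 called 1018 at ZT0, RLE scaling 92, library size alone 89 and the main fit 65. At ZT12 the count of members was 0 without the low-rRNA libraries, 4 with the covariate, and 3 without the 1-sex libraries or with the length offset. Without the 1-sex libraries, WT ZT12 keeps only replicates 5 and 6, both low-rRNA, and no KO ZT12 library is low-rRNA. In that fit genotype and rRNA share at ZT12 cannot be told apart. At ZT18 the count of members was 0 with the covariate or without the 1-sex libraries and 1 with the offset. For genotype by time it was 0 without the low-rRNA libraries, 5 with the covariate and 4 without the 1-sex libraries, where time in WT gave 1 and time in KO 10. Time in WT gave 1 with library size alone or no filter, and time in KO 13 with no filter and 8 without the low-rRNA libraries. Leaving out 1 library gave 1 to 6, 0 to 16, 0 to 0, 3 to 8, 0 to 6, 7 to 15, 1 to 3 and 16 to 22 in the order above. The median of SR genes was -0.16 at ZT18 with the covariate and -0.06 at ZT12 without the 1-sex libraries. The small snRNP medians kept their sign under all alternatives run, at 0.26 to 0.43 at ZT0 and 0.16 to 0.28 at ZT18. Fits without the low-rRNA or 1-sex libraries use fewer samples and called fewer genes in each comparison fitted, and the fit without low-rRNA libraries leaves out ZT18. The cause of the changes under these alternatives was not tested.

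Uncalled fold changes over all times changed sign without the low-rRNA libraries for Sf3b1 (0.02), Srsf3 (0.04), Srsf10 (0.01), Srsf7 (0.02), Sf3a2 (-0.05) and Lsm11 (-0.06), without the 1-sex libraries for Srsf3 (0.02), Sf3b4 (0.00) and Lsm11 (-0.01), and with the length offset for Sf3b1 (0.02) and Srsf3 (0.02). Srsf3 ran from -0.02 to 0.01 with 1 library left out. Same-numbered libraries of different groups had a median correlation of 0.02 over 116 pairs, 16 of them over 0.1. Differently numbered ones had a median of 0 over 511 pairs, 50 of them over 0.1. These values show no general pairing by number and cannot exclude one in some groups. Under the replicate block Snrpa at ZT12 (adjusted p = 0.0624) was lost, as were Lsm12 for genotype by time, Srsf2 for time in WT, and Lsm1 and Srsf6 for time in KO, while Sf3b2 at ZT18 and Lsm14b and Srsf9 for time in KO were gained. Among all genes, the ZT12 calls were 298 higher and 841 lower with TMM and 424 and 578 with library size alone, and the ZT18 calls 318 and 170 with TMM, 198 and 259 by library size alone, and 237 and 234 under RLE. At ZT0 they were 42 and 23 with TMM and 38 and 54 with RLE scaling.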
